A study of Mus musculus with 12 samples.

Results

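The genes of mitochondrial and peroxisomal fatty acid oxidation were followed in AML12, an immortalized mouse hepatocyte line that the labels give as WT. As background, the line was established from mice transgenic for human transforming growth factor alpha, and all 4 groups share it. They are 37 genes taken by symbol from the table of 24824 genes, and all 37 were found in it. They comprise 4 genes of fatty acid activation, 5 of the carnitine shuttle, 7 acyl-CoA dehydrogenases, 7 enzymes of the mitochondrial spiral with its isomerases, 3 of electron transfer, 9 peroxisomal genes and 2 acyl-CoA thioesterases. Group A was grown in standard medium. Group B received 300 μM CuCl2 with 40 nM elesclomol (ES), an ionophore that carries copper into cells (Cu/ES). Group C received the same Cu/ES together with 1000 μM taurocholic acid (TCA), a conjugated bile acid, and group D was given TCA alone at 1000 μM. All groups were harvested after 24 h, with 3 polyadenylated RNA libraries in each. No source says that the 3 libraries came from separate cultures, so the p-values measure only the spread between libraries, which may be technical.

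Long-chain fatty acids are first activated to acyl-CoA, and carnitine then carries the acyl group across the inner mitochondrial membrane. Inside the mitochondrion, each turn of the β-oxidation spiral consists of a dehydrogenation, a hydration, a second dehydrogenation and a thiolytic cleavage that releases acetyl-CoA, and the electrons of the first step reach the respiratory chain through electron transfer flavoprotein. Peroxisomes hold a parallel set of enzymes, which begins with an oxidase instead of a dehydrogenase and shortens very long and branched chains and the side chain of bile acid precursors. Hepatocytes rely on both routes, and cuproptosis, the copper-dependent cell death that Cu/ES is used to induce, acts on lipoylated enzymes of mitochondrial carbon metabolism, which meets this pathway at acetyl-CoA.

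The values are FPKM, fragments scaled to the length of the gene and to the library total. Their spacing gives back whole reads, with library totals of 38290273 to 39099637 reads (group A), 30771090 to 31999051 (group B), 29112016 to 34908553 (group C) and 39434360 to 39772245 (group D). All 12 libraries entered 1 limma fit of log2(FPKM + 1) over the 10615 genes whose mean FPKM reached 1, and p-values were adjusted over all of these genes (Benjamini-Hochberg). Of the 37 genes, 34 passed this filter, and Acox2, Ehhadh and Acot1 did not. FPKM is relative to the library total, and the median change of all genes tested was -1.10 on the log2 scale in group B vs. A and -1.13 in group C vs. D, so changes are also read against that median. Bulk libraries cannot tell fewer cells of a type from less RNA per cell.

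The hepatocyte label was checked against 12 hepatocyte markers in the table, of which 5 stayed under 1 FPKM in every library. Krt8 and Krt18, keratins of simple epithelia, were abundant, with 344 ± 37.7 and 285 ± 22.7 FPKM in group A (SD, n = 3). Alb, Apob and Hnf4a, which define mature hepatocytes, were listed at 0 in groups A and D and had means below 0.1 FPKM in groups B and C. The summed level of the 12 markers, mostly these keratins, was 604 to 658 FPKM (A), 250 to 303 (B), 208 to 241 (C) and 710 to 727 (D). Other hepatocyte markers moved the opposite way, with Asgr1 at 0.0789 FPKM (A), 3.84 (B) and 12.6 (C) and Apoe at 1.73, 7.96 and 20.5 FPKM on average. Of the 6 tested, 2 were higher and 4 lower in group B vs. A at the adjusted p, or 3 and 1 under median-ratio scaling. Of all genes tested, 20.1% were higher and 72.0% lower, or 42.8% and 45.0% under that scaling. The cholangiocyte markers Spp1 and Krt19 moved in opposite directions, from 673 to 1190 FPKM and from 268 to 77.3 FPKM in the means of groups A and B. Sums of 6 cholangiocyte markers, mostly these, were 920 to 1000 FPKM (A), 1240 to 1400 (B), 735 to 951 (C) and 743 to 790 (D), and those of 7 fibroblast and stellate markers were 140 to 207 (A), 3.50 to 5.76 (B), 1.5 to 2.56 (C) and 121 to 183 (D). Col3a1 made up most of the fibroblast and stellate sums in groups A and D, at 138 and 126 FPKM. Acta2 and Col1a2 moved the other way in the means of groups A and B, from 0.00604 to 0.36 and from 0.0116 to 0.0508 FPKM. Sums of 4 endothelial markers were 0.922 to 1.16 FPKM (A), 6.79 to 10.5 (B), 16.5 to 19.7 (C) and 0.865 to 1.25 (D). Pecam1 made up most of these in groups B and C, at 6.85 and 16.1 FPKM, while Cdh5 was at 0.74 (A), 0.933 (B) and 1.6 (C). Sums of 4 macrophage markers were 72.5 to 102 FPKM (A), 24.6 to 29.1 (B), 24.1 to 36.8 (C) and 25.5 to 37 (D), nearly all of it Cd68, while Adgre1 was listed at 0 in groups A, B and D. The part of these markers in the results was not tested.

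The sequence before the transcription start is shown for 6 of the genes, to set those that moved furthest or parted from their partners beside each other. Cpt2 and Decr2 had the largest falls with Cu/ES, Acsl3 had a small change, and Etfa, Etfb and Etfdh form 1 electron transfer route whose members differed with TCA. The sequences are RefSeq promoters on GRCm38.p6, 250 bases before the start, written on the strand of the gene. Capitals mark GGGCGG, the GC box read by Sp1-type factors, and GCATGCGC, the core of the site of NRF1, a transcription factor of mitochondrial genes, on either strand.
Cpt2 (chr4:107923590-107923839, minus strand): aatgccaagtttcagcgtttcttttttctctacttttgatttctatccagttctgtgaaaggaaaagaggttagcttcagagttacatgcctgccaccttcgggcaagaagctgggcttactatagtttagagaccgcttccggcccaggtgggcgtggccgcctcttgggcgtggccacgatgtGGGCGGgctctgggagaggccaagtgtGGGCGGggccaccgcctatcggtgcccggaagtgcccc
Decr2 (chr17:26090165-26090414, minus strand): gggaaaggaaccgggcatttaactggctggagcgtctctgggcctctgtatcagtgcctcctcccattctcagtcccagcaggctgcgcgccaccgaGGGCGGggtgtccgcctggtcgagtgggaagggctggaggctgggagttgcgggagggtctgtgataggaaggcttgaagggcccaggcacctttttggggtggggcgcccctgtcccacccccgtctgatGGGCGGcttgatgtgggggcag
Acsl3 (chr1:78657575-78657824, plus strand): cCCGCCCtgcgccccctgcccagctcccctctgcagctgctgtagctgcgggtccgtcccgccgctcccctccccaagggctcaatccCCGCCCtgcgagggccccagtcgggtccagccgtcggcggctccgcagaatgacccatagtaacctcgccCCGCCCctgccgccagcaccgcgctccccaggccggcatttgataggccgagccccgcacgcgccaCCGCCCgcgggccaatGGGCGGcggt
Etfa (chr9:55512244-55512493, minus strand): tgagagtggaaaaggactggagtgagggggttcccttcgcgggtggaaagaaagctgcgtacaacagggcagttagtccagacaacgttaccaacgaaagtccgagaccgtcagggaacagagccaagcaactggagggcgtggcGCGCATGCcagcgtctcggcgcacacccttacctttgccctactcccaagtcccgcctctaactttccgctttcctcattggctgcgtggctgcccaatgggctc
Etfb (chr7:43443822-43444071, plus strand): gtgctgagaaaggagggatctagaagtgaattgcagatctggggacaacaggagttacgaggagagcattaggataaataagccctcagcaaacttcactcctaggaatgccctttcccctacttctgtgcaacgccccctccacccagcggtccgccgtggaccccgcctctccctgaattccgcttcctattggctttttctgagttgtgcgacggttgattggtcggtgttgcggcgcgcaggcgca
Etfdh (chr3:79628768-79629017, minus strand): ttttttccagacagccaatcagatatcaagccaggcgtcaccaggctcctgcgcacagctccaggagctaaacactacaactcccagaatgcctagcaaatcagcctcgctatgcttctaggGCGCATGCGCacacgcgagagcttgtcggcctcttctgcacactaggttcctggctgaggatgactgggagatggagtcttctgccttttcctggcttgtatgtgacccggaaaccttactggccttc
The GC box was found in Cpt2, Decr2 and Acsl3, and the NRF1 core was found in Etfa and Etfdh, where its copies on both strands overlap, while the window of Etfb held neither. The promoter table held 33 of the 37 genes, of which 30 were tested for expression. Of these 30, 21 (70.0%) held a GC box, against 65.6% of all tested genes and 35.4% of all genes in the table. The NRF1 core was found in 4 (13.3%), namely Acadm, Acad10, Etfa and Etfdh, against 5.44% of the tested genes and 2.56% of all genes. The E-box CACGTG, the cAMP response element TGACGTCA, the PPAR/RXR direct repeat in its exact form and the estrogen-related receptor element TCAAGGTCA were in none of the 33 windows, on either strand, and were in 10.2%, 3.12%, 0.0353% and 0.282% of the tested genes. The GC box stood before Cpt2, Decr2 and Acsl3, as before most tested genes, and its relation to the size of the change was not tested. The CCAAT box was found in 12 of the 30 windows (40.0%), against 41.2% of the tested genes, and AGGTCA, the core of many nuclear receptor sites, in 5 (16.7%), against 12.5%. TTGCATCA, an ATF4 element, and GAANNTTC, a heat shock element, were each found in 1 window (3.33%), against 0.635% and 5.66%. A match describes these letters and does not show that a factor binds there.

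Group B was compared with group A to ask how copper loading changed the genes of fatty acid burning. All 34 tested genes were lower in group B at an adjusted p under 0.05, a call that 72.0% of all genes tested also received, and 29 of them passed both that threshold and an absolute log2 fold change of 1, in the lower direction, as did 53.0% of all genes. In all 34 the 3 libraries of group B lay below the 3 of group A, as they did for 72.4% of all genes. The median change of the 34 genes was -2.08 on the log2 scale, against -1.10 for all genes tested, and 29 of the 34 lay below the median gene. The summed level of the 37 genes was 781 ± 21.4 FPKM in group A and 151 ± 1.35 in group B, a 5.17-fold lower level. After the libraries were rescaled so that the median gene was nearly equal (median-ratio scaling, median gene -0.03), 28 genes were lower and 3 were higher, against 45.0% and 42.8% of all genes, and the median change was -0.98. Under TPM, median-ratio and quantile scaling and with limma-voom on recovered reads, 25 of the 34 genes were lower at the adjusted p every time, and the other 9 lost the direction under at least 1 scaling.

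**Figure D1:**
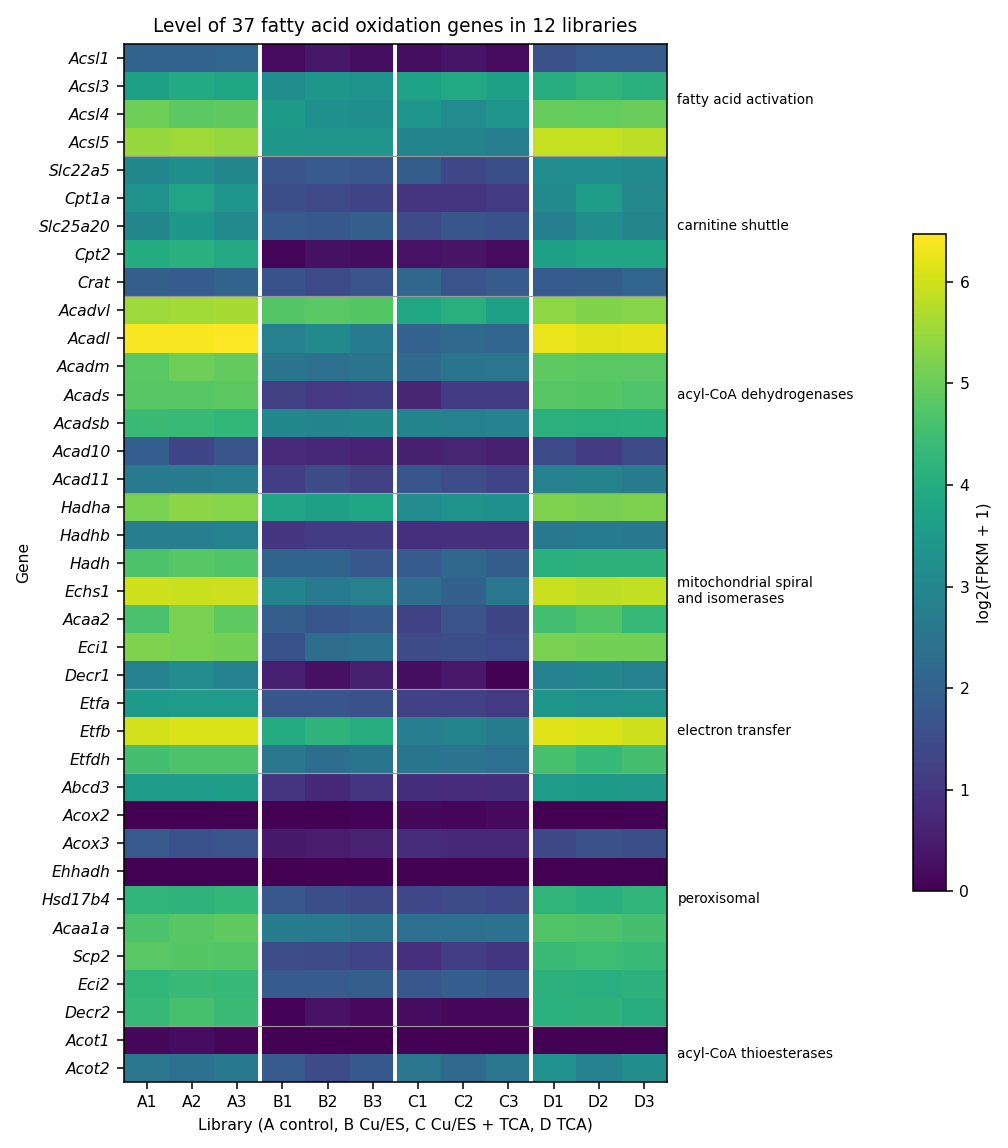
Level of the 37 fatty acid oxidation genes as log2(FPKM + 1), in color, with 1 row per gene and 1 column per library, ordered by role and by group. The columns of groups B and C are darker than those of groups A and D for most genes, Acsl3 and Crat stay close to their level in group A, and Acox2, Ehhadh and Acot1 are near 0 in every library.

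The carnitine shuttle was the most divided class. Cpt2, the inner-membrane transferase that hands the acyl group back to coenzyme A, had 15.0, 16.1 and 14.0 FPKM in the group A libraries and 0.0806, 0.213 and 0.166 in those of group B. These were 1291 to 1468 reads against 6 to 16, a 98.3-fold lower mean, and the change was -3.80 ± 0.09 on the log2(FPKM + 1) scale (SE; limma, adjusted p = 7.75e-14). Cpt1a, the outer-membrane transferase that is the controlled entry step, had 8.90, 12.8 and 9.50 FPKM in group A against 1.92, 1.67 and 1.49 in group B, a 6.14-fold lower mean. Slc22a5, the plasma membrane carnitine transporter, fell 3.12-fold, from 7.40 ± 0.744 to 2.37 ± 0.116 FPKM, and Slc25a20, the carnitine and acylcarnitine exchanger of the inner membrane, fell 3.08-fold, from 8.11 ± 1.58 to 2.63 ± 0.200 FPKM. Both of these were close to no change under quantile scaling, at 0.07 and 0.06. Crat, which makes acetylcarnitine, stayed at 2.90, 2.69 and 3.13 FPKM in group A against 2.12, 1.73 and 2.21 in group B. Its change of -0.37 ± 0.12 (adjusted p = 0.00911) became 0.53 under median-ratio scaling and 1.0 under quantile scaling, so that its direction depended on the scaling. Within 1 pathway step, the transferases Cpt1a and Cpt2 thus differed by a wide margin in the size of their fall, while Crat had the smallest change of the 34 genes on the FPKM scale.

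Among the activating enzymes, which join fatty acids to coenzyme A, the ratio of mean FPKM was largest for Acsl1 and smallest for Acsl3, while on the log2(FPKM + 1) scale Acsl5 fell most, at -2.10, against -1.79 for Acsl1. Acsl1, the major long-chain synthetase of liver, was low already in group A, at 3.23 ± 0.102 FPKM, and fell 14.4-fold to 0.225 ± 0.0997 FPKM. Acsl5, the most abundant of the 4 here, fell 4.64-fold from 43.8 ± 1.71 to 9.45 ± 0.290 FPKM, and Acsl4, which prefers arachidonate, fell 3.24-fold from 29.4 ± 2.36 to 9.09 ± 1.10 FPKM. Acsl3, a synthetase of the endoplasmic reticulum and lipid droplets, had 11.8, 14.6 and 13.2 FPKM in group A against 7.96, 9.78 and 9.03 in group B. Its change was -0.51 ± 0.10 (adjusted p = 0.000186), which became 0.66 under median-ratio scaling.

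The acyl-CoA dehydrogenases, which take the first step of the spiral according to chain length, also split. Acadl, for long chains, was the most abundant of the 37 genes in group A at 83.9, 83 and 87.4 FPKM and had 6.15, 7.35 and 5.47 FPKM in group B, a change of -3.56 ± 0.09 (limma, adjusted p = 1.47e-13). Acads, for short chains, went from 26.8, 26.7 and 27.6 FPKM to 1.32, 1.10 and 1.30, a change of -3.65 ± 0.11 (adjusted p = 6.10e-13) and a 21.8-fold lower mean. Acadm, for medium chains, fell 6.55-fold, from 29.4 ± 2.28 to 4.49 ± 0.335 FPKM. In contrast, Acadvl, the membrane-bound enzyme for very long chains, kept 25.5, 27.3 and 26.3 FPKM against 44.8, 46.8 and 48.2 in group A. Its change of -0.80 ± 0.09 (adjusted p = 6.50e-07) became 0.45 under median-ratio scaling. Reads of Acadl were 1.62 ± 0.0448 times those of Acadvl in group A and 0.213 ± 0.0272 times in group B, and these ratios, which do not depend on the library total, did not overlap. Acadsb, for branched short chains, fell 2.85-fold, and Acad10 and Acad11, less studied members of the family, fell 3.47-fold and 3.69-fold, although their log2 changes under quantile scaling were 0.31 and 0.00.

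All 7 genes of the mitochondrial spiral and its isomerases passed both thresholds, with a median change of -2.75. Echs1, the short-chain enoyl-CoA hydratase, had 63.2, 60.4 and 62.0 FPKM in group A against 6.57, 5.41 and 5.99 in group B, a 10.3-fold lower mean. Acaa2, the thiolase, Eci1, which moves the double bond of unsaturated chains, and Hadh, the short-chain hydroxyacyl-CoA dehydrogenase, were 11.1-fold, 10.1-fold and 8.65-fold lower. Decr1, the mitochondrial dienoyl-CoA reductase, was 16.9-fold lower, with only 22 to 45 reads in each library of group B. The subunits of the trifunctional protein, which carries out the last steps for long chains, fell least, with Hadha 3.00-fold and Hadhb 5.11-fold lower. These subunits are encoded by separate genes, and reads of Hadha were 2.89 ± 0.167 times those of Hadhb in group A and 4.95 ± 0.590 times in group B, with no overlap between libraries.

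The electron transfer genes moved together in group B. Etfa and Etfb, the subunits of electron transfer flavoprotein, fell 4.84-fold and 4.26-fold, and Etfdh, its ubiquinone oxidoreductase, fell 5.24-fold. Their changes were -1.87, -2.03 and -2.16 on the log2 scale, and their libraries in the 2 groups did not overlap. The level of Etfa itself, 10.8 ± 0.279 FPKM in group A, rests on a gene length of 9687 bases implied by its reads. GENCODE M21 gives 1835 bases of exons, so this level cannot be set against that of Etfb or Etfdh. The fold differences in mean FPKM between groups do not depend on that length. The change of Etfa on the log2 scale does, because a constant is added to FPKM before the logarithm.

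The 7 tested peroxisomal genes all passed both thresholds in the lower direction, with a median change of -2.66. Decr2, the peroxisomal dienoyl-CoA reductase, had the largest fall of the 34 genes. It had 19.3, 23.0 and 20.3 FPKM in group A against 0.0469, 0.248 and 0.113 in group B, or 1492 to 1804 reads against 3 to 16. The change was -4.27 ± 0.09 (limma, adjusted p = 5.30e-14), and on recovered reads, where no constant is added to FPKM, limma-voom gave -7.45 ± 0.51. Scp2, which holds the thiolase for branched chains and a sterol carrier, fell 15.2-fold from 26.3 ± 0.807 to 1.73 ± 0.226 FPKM. Abcd3, which imports long-chain acyl groups, fell 12.3-fold, Hsd17b4, the bifunctional enzyme of the branched-chain route, fell 8.98-fold, Eci2 fell 7.04-fold and the thiolase Acaa1a fell 5.02-fold. Acaa1a has a close copy, Acaa1b, so its reads may be shared. Acox3, an oxidase for branched chains, was low, at 2.28 ± 0.199 FPKM in group A and 0.449 ± 0.0873 in group B, and its change of -1.18 was lost under quantile scaling, at 0.09.

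Thus the spiral and the peroxisomal class had similar medians of -2.75 and -2.66, against -2.03 for electron transfer, -1.69 for activation, -1.40 for the dehydrogenases and -1.31 for the shuttle, all on the log2(FPKM + 1) scale. No test between classes was made. The summed peroxisomal level fell 9.40-fold, from 124 ± 3.22 to 13.2 ± 0.840 FPKM, and that of the spiral fell 6.93-fold, from 201 ± 8.36 to 29.0 ± 0.951 FPKM. The sum of the shuttle fell 4.94-fold, from 43.8 ± 5.04 to 8.87 ± 0.289 FPKM, with Cpt2 and Crat at its extremes.

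**Figure D2:**
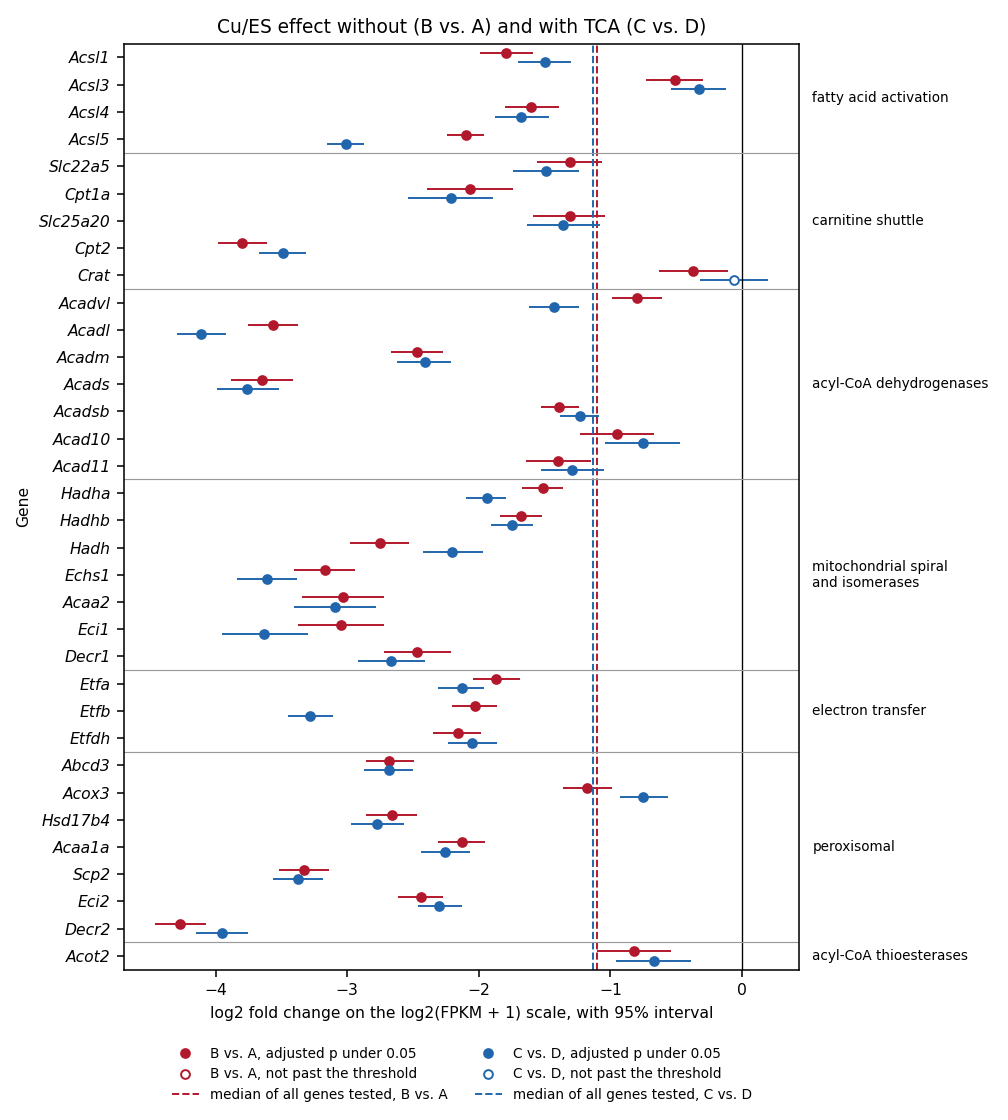
Log2 fold changes on the log2(FPKM + 1) scale with 95% intervals for the 34 tested genes, group B vs. A in red and group C vs. D in blue, with dashed lines at the median of all genes tested. 29 of 34 genes lie left of the dashed line in either comparison, and Acsl3, Crat, Acot2 and Acad10 lie to its right in both, with Acsl3, Crat and Acot2 above 0 under median-ratio and quantile scaling and Acad10 above 0 under quantile scaling.

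The thioesterases release free fatty acid from acyl-CoA. Acot2, the mitochondrial form, went from 4.88, 4.38 and 5.08 FPKM in group A to 2.62, 1.80 and 2.45 in group B. Its change was -0.82 ± 0.13 (adjusted p = 3.53e-05), which was 0.16 under median-ratio scaling and 0.58 under quantile scaling. Acot1, the cytosolic form, had 4 to 10 reads per library in group A and at most 1 in group B. Acot1 and Acot2 are near-identical neighbours, so reads may be shared between them.

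The plot of changes under both scalings shows which genes depended on the library total. The 4 largest falls stayed large after median-ratio scaling, with Decr2 at -3.54, Cpt2 at -3.08, Acads at -2.63 and Acadl at -2.35.

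**Figure D3:**
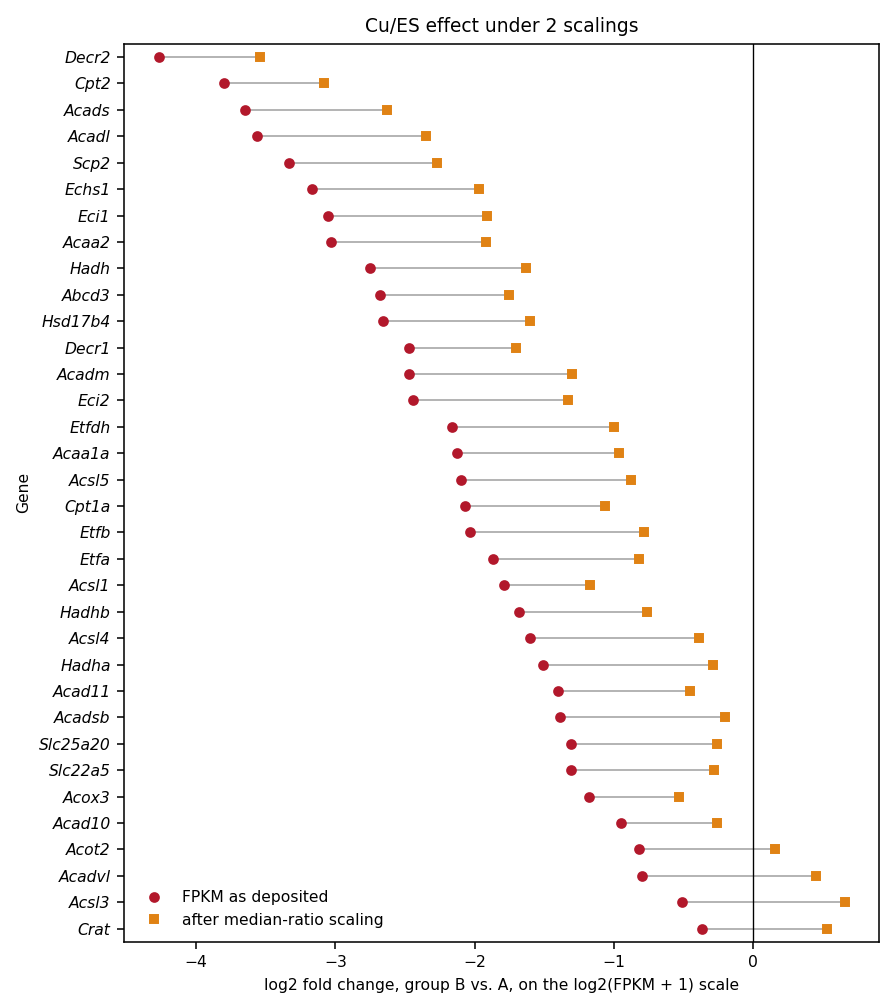
Log2 fold change of the 34 tested genes in group B vs. A on FPKM as deposited (circles) and after median-ratio scaling (squares), sorted by the first. Each square lies to the right of its circle, and Acot2, Acadvl, Crat and Acsl3 cross 0.

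Group C was compared with group D, which repeats the question of copper loading in the presence of TCA and shares no library with the comparison above. Of the 34 genes, 33 were lower in group C at the adjusted p, against 71.5% of all genes, and 29 passed both thresholds, against 53.3%. The libraries of group C lay below those of group D for 33 genes, against 71.6% of all genes, and Crat overlapped. The median change was -2.20, against -1.13 for all genes. The largest falls were in Acadl, with 3.09, 3.59 and 3.29 FPKM in group C and 77.1, 70.2 and 72.8 in group D (-4.11 ± 0.09, adjusted p = 4.73e-14), and in Decr2, with 0.153, 0.0994 and 0.107 FPKM in group C and 16.5, 17.2 and 15.3 in group D (-3.95 ± 0.09, adjusted p = 8.23e-14). Acads followed with -3.76 ± 0.11 (adjusted p = 3.77e-13), and Eci1 with -3.63 ± 0.15 (adjusted p = 1.19e-11). Crat had 3.42, 2.20 and 2.61 FPKM in group C and 2.58, 2.72 and 3.34 in group D, a change of -0.06 ± 0.12 (adjusted p = 0.649), with an interval from -0.32 to 0.20. Across the 34 genes, the changes in both comparisons correlated with r = 0.94 (Spearman's rho = 0.94). This is a description over genes, which are not independent. The summed level of the 37 genes was 115 ± 3.45 FPKM in group C and 725 ± 16.0 in group D, 6.31-fold lower. Under median-ratio scaling 27 genes were lower and 3, Crat, Acsl3 and Acot2, were higher, against 46.8% and 42.0% of all genes, with a median of -1.16 against -0.11.

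Group D was compared with group A to ask what TCA did alone. Of the 34 genes, 3 were higher and 6 were lower at the adjusted p, against 10.5% and 11.5% of all genes, and all changes lay between -0.57 and 0.58 on the log2 scale. Acot2 had 8.57, 6.33 and 8.19 FPKM in group D, above every library of group A, a 1.61-fold higher mean and a change of 0.58 ± 0.13 (limma, adjusted p = 0.00724). Acsl5 rose to 58.6, 59.0 and 55.7 FPKM from 43.2, 45.8 and 42.5, a change of 0.39 ± 0.07 (adjusted p = 0.00136). Acsl3 rose from 13.2 ± 1.42 to 16.4 ± 1.33 FPKM, a change of 0.30 ± 0.10 (adjusted p = 0.0435). The synthetases therefore did not move alike, since Acsl1 fell from 3.19, 3.16 and 3.35 to 2.03, 2.58 and 2.56 FPKM (-0.32 ± 0.09, adjusted p = 0.0243) and Acsl4 had 29.4 ± 2.36 and 30.3 ± 0.613 FPKM. Hadh showed the largest fall, from 24.4, 26.8 and 25.3 to 16.1, 17 and 17.2 FPKM, a change of -0.57 ± 0.11 (adjusted p = 0.00231). Scp2 fell from 27.2, 26.2 and 25.6 to 20.3, 20.9 and 20.0 FPKM (-0.35 ± 0.09, adjusted p = 0.0123), and Decr2 from 20.9 ± 1.90 to 16.3 ± 0.949 FPKM (-0.33 ± 0.09, adjusted p = 0.0198). Acadvl and Acadsb, both 0.831 times their level in group A, were the other 2 that fell. The calls of Acadvl and Acadsb were also lost under median-ratio scaling, with adjusted p of 0.180 and 0.0550. The calls of Acsl3, Acsl1, Decr2 and Scp2 were lost under median-ratio scaling, with adjusted p of 0.0549, 0.107, 0.0682 and 0.0550, and under a pseudocount of 0.1. Over all alternatives the adjusted p ran from 0.00718 to 0.176 for Acsl3, 0.0143 to 0.284 for Acsl1, 0.0117 to 0.374 for Decr2 and 0.00135 to 0.0781 for Scp2. The calls of Acot2, Acsl5 and Hadh held under every scaling. Of the 5 shuttle genes, Cpt1a had 10.4 ± 2.08 FPKM in group A and 8.62 ± 2.24 in group D, and Cpt2 had 15.0 ± 1.0 and 12.6 ± 0.695 FPKM.

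Group C was compared with group B to ask what TCA added to Cu/ES. At the adjusted p, 3 of the 34 genes were higher and 13 were lower, against 20.4% and 23.6% of all genes. Etfb passed both thresholds in the lower direction, as did 1.16% of all genes. Etfb had 14.8, 17.3 and 15.3 FPKM in group B and 5.78, 6.59 and 5.69 in group C, a 2.63-fold lower mean and a change of -1.26 ± 0.08 (limma, adjusted p = 2.52e-07). Its partner Etfa went from 2.32, 2.33 and 2.05 to 1.38, 1.44 and 1.13 FPKM, a 1.69-fold lower mean, and Etfdh had 4.88, 4.07 and 4.70 FPKM in group B and 4.73, 4.52 and 4.11 in group C, where the libraries overlapped. Reads of Etfb were 0.662 ± 0.0570 times those of Etfa in group B and 0.429 ± 0.0384 times in group C. Reads of Etfdh were 0.483 ± 0.0662 times those of Etfa in group B and 0.800 ± 0.0567 times in group C. The 3 genes of the electron transfer route, which had similar changes in group B vs. A, thus had unequal ones in group C vs. B.

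The dehydrogenases for the longest chains fell as well. Acadvl went from 25.5, 27.3 and 26.3 to 13.8, 15.9 and 11.8 FPKM, a change of -0.89 ± 0.09 (adjusted p = 5.31e-06), and Acadl from 6.15, 7.35 and 5.47 to 3.09, 3.59 and 3.29 FPKM, a change of -0.75 ± 0.09 (adjusted p = 1.89e-05). Acadm, with 4.49 ± 0.335 and 4.36 ± 0.647 FPKM, and Acads, with 1.24 ± 0.120 and 1.0 ± 0.345 FPKM, did not pass the threshold. Of the spiral genes, Eci1, Echs1, Hadha, Acaa2 and Hadhb were lower, and Hadh and Decr1 did not pass. Eci1 had 2.08, 3.95 and 4.41 FPKM in group B and 1.83, 1.92 and 1.76 in group C (-0.62 ± 0.15, adjusted p = 0.00458), with the first library of group B close to those of group C. Hadha went from 12.4 ± 0.590 to 8.39 ± 0.585 FPKM and Echs1 from 5.99 ± 0.583 to 3.92 ± 0.866 FPKM. Acsl5 fell from 9.79, 9.30 and 9.27 to 6.55, 6.58 and 5.83 FPKM, Cpt1a from 1.69 ± 0.217 to 1.04 ± 0.0869 FPKM, Acaa1a from 5.25 ± 0.549 to 4.20 ± 0.128 FPKM and Scp2 from 1.73 ± 0.226 to 1.08 ± 0.198 FPKM. Under TPM scaling the calls of Acaa2, Hadhb, Cpt1a and Acaa1a were lost, with adjusted p of 0.0535, 0.0837, 0.105 and 0.106. Those of Acaa2 and Cpt1a were also lost under quantile scaling and on recovered reads, and that of Acaa1a on recovered reads.

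The 3 genes that rose in group C vs. B were Acot2, Acsl3 and Acox3. Acot2 went from 2.62, 1.80 and 2.45 to 4.93, 3.62 and 4.78 FPKM (0.73 ± 0.13, adjusted p = 0.000574). Acsl3 went from 7.96, 9.78 and 9.03 to 12.4, 14.2 and 12.1 FPKM (0.49 ± 0.10, adjusted p = 0.00129). Acot2 and Acsl3 were therefore higher with TCA both with and without Cu/ES. The call of Acsl3 without Cu/ES was, however, lost under 9 of 16 alternatives, among them 5 of 6 refits without 1 library. Acox3 went from 0.382, 0.418 and 0.548 to 0.769, 0.689 and 0.657 FPKM (0.24 ± 0.09, adjusted p = 0.0381), and this call was lost without the filter and in 5 of 6 refits without 1 library, all but that without B replicate 3, with an adjusted p from 0.00894 to 0.126 over all alternatives. Cpt2, at 0.153 ± 0.0670 and 0.211 ± 0.0710 FPKM, and Decr2, at 0.136 ± 0.102 and 0.120 ± 0.0290 FPKM, had at most 22 reads per library in either group, and a difference was not detectable at this depth. The summed level of the 37 genes was 151 ± 1.35 FPKM with Cu/ES and 115 ± 3.45 FPKM with Cu/ES and TCA, so that it was further from the 781 ± 21.4 FPKM of the untreated cells.

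**Figure D4:**
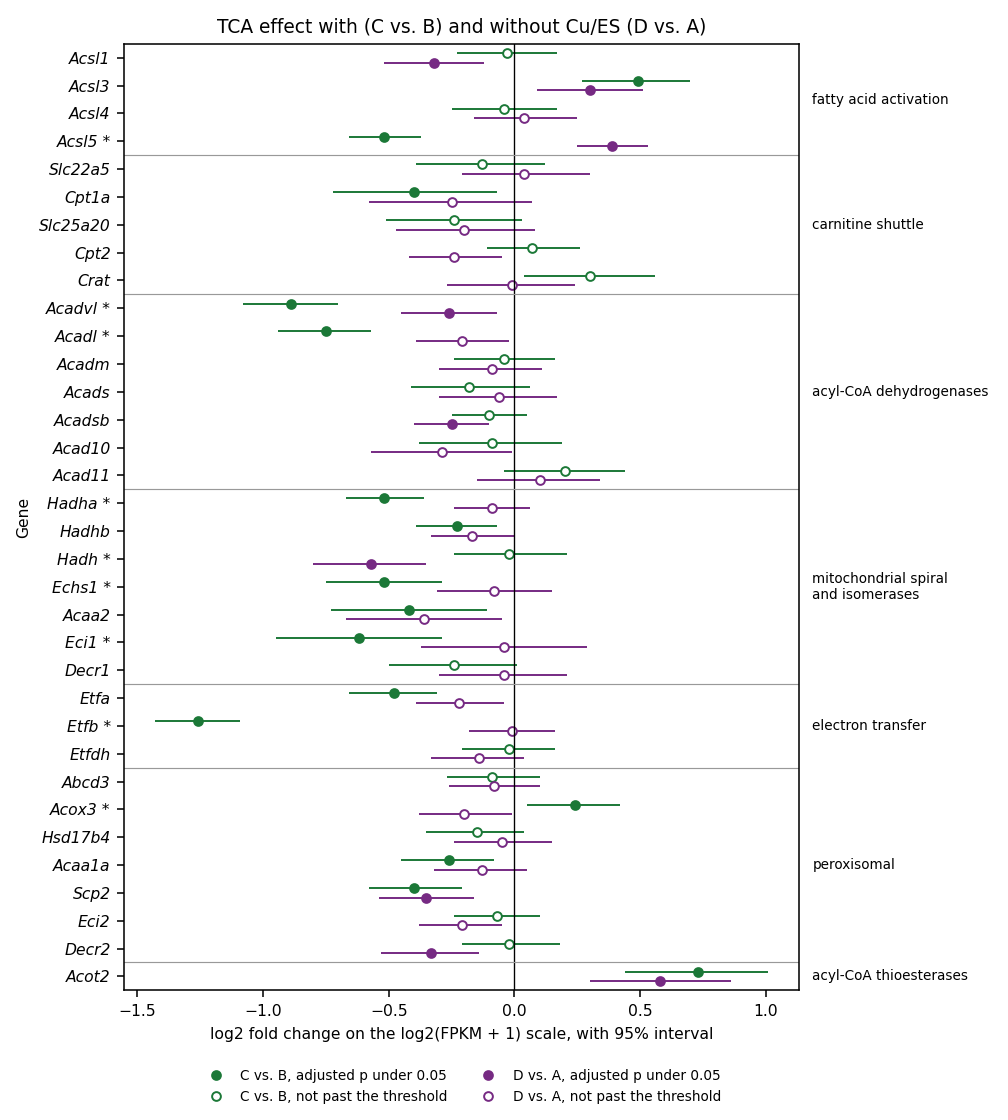
Log2 fold changes with 95% intervals for the 34 tested genes with TCA in the presence of Cu/ES (C vs. B, green) and in its absence (D vs. A, purple), filled where the adjusted p was under 0.05. Asterisks mark the 9 genes whose changes differed by the interaction test, among them Etfb far to the left in green and Acsl5 on opposite sides of 0.

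An interaction term compared the TCA effect in the presence of Cu/ES with that in its absence. It was higher with Cu/ES for 2 genes and lower for 7, against 17.7% and 19.8% of all genes. Etfb had the largest difference, -1.25 ± 0.11 (limma, adjusted p = 1.09e-05), as it was 67.3 ± 2.94 FPKM in group A and 67.1 ± 4.31 in group D but fell in group C. Acsl5 rose with TCA alone and fell with TCA on top of Cu/ES, a difference of -0.91 ± 0.09 (adjusted p = 2.46e-05). Acadvl differed by -0.63 ± 0.12 (adjusted p = 0.00165), Acadl by -0.55, Echs1 by -0.44 and Hadha by -0.43. The call of Echs1 was lost under TPM and quantile scaling, with adjusted p of 0.124 and 0.0819, and that of Hadha under quantile scaling, with an adjusted p of 0.0604. The difference of Eci1, -0.58 ± 0.21 (adjusted p = 0.0473), was lost under 15 of 21 alternatives, among them the omission of any 1 library other than B replicate 1 or C replicate 2, with an adjusted p from 0.000199 to 0.120. Hadh, which fell with TCA alone, had 2.95 ± 0.507 FPKM in group B and 2.90 ± 0.480 in group C, a difference of 0.56 ± 0.15 (adjusted p = 0.0102). Acox3 differed by 0.43 ± 0.12 (adjusted p = 0.0128). Under TPM, median-ratio and quantile scaling and on recovered reads, Etfb, Acsl5, Acadvl and Acadl stayed lower and Hadh and Acox3 stayed higher at the adjusted p.

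**Figure D5:**
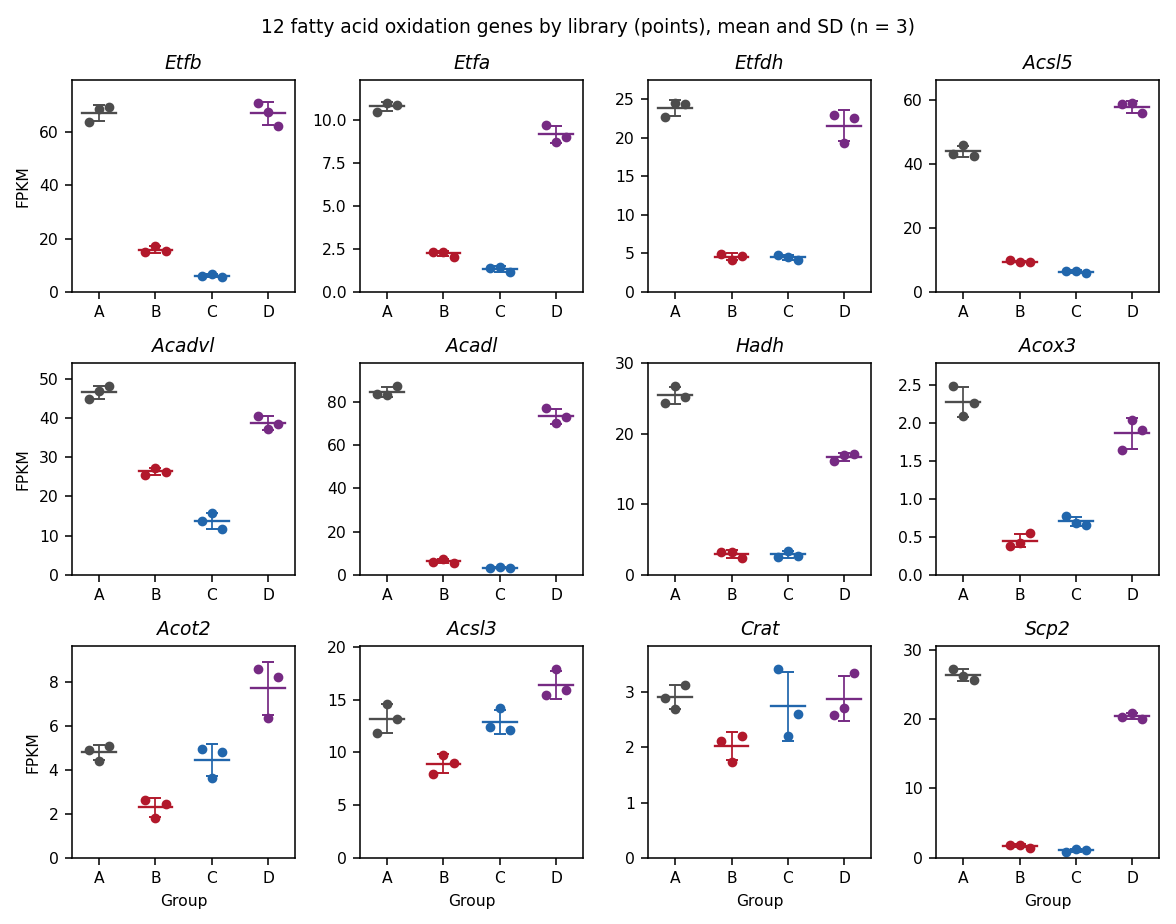
FPKM of 12 genes in the 3 libraries of each group (points) with the mean (line) and SD (bar), on axes that start at 0. Etfb steps down from group B to group C while Etfdh does not, Acsl5 is highest in group D and lowest in group C, and Acot2 and Acsl3 are higher with TCA in either pair of groups.

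The 3 genes below the filter are given by their reads. Acox2 is the oxidase for bile acid precursors and branched chains. It had 1 read over the libraries of group A, 5 over those of B, 28 over those of C and 0 over those of D. In group C these were 9, 7 and 12 reads in the 3 libraries, and 0.0905 ± 0.0267 FPKM. A count of 0 was taken to allow 3 reads over group D, and the 28 reads of group C were taken as exact. On these terms, the level in group C was at least 11.5-fold that in group D. This ratio allows for the counting error of group D only. Ehhadh, the peroxisomal bifunctional enzyme for straight chains, was listed above 0 in 1 library of group C alone, at 0.00950 FPKM. Acot1 had 20 reads over group A, 1 over B, 1 over C and 6 over D.

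The other genes of the pathway were read from lists beside the 37. Of 31 tested genes of fatty acid oxidation and its neighbours, 28 were lower and 2 were higher in group B vs. A, where 72.0% and 20.1% of all genes were lower and higher, with a median of -1.93. On the log2(FPKM + 1) scale, the largest fall was -3.49 in Acsf2, a mitochondrial acyl-CoA synthetase, from 23.4 ± 1.40 to 1.17 ± 0.153 FPKM, and the largest rise was in Acot7, a cytosolic thioesterase, from 27.1 ± 1.64 to 98.8 ± 2.92 FPKM (1.83 ± 0.07, adjusted p = 8.09e-12). Under median-ratio scaling the list had 23 genes lower and 7 higher, where 45.0% and 42.8% of all genes were.

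Of 20 tested peroxisome biogenesis genes, 19 were lower and 1 was higher in group B vs. A, with a median of -1.94. Under median-ratio scaling 13 were lower and 7 higher. Of 5 tested ketone body genes, 3 were lower and 1 was higher, or 3 and 2 under median-ratio scaling. Of all genes tested, 72.0% were lower and 20.1% higher, or 45.0% and 42.8% under median-ratio scaling. Acat1, the mitochondrial acetoacetyl-CoA thiolase, fell from 34.8 ± 0.770 to 4.56 ± 0.226 FPKM (-2.69), and Slc16a1, a carrier of lactate and ketone bodies, rose from 69.6 ± 5.91 to 90.2 ± 0.766 FPKM (0.37) and further to 141 ± 0.968 FPKM in group C.

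Among 17 tested regulators of the pathway, 13 were lower and 3 were higher in group B vs. A, with a median of -1.18, near the 72.0% lower and the median of -1.10 of all genes, and 9 were lower and 8 higher under median-ratio scaling, where 45.0% and 42.8% of all genes were. Ncor1, a corepressor of nuclear receptors, fell from 37.3 ± 2.19 to 4.63 ± 0.270 FPKM (-2.77), and Sirt1, a deacetylase, rose from 5.92 ± 0.241 to 48.8 ± 5.10 FPKM (2.84). Ppara, the nuclear receptor that drives these genes in liver, was at 0.0173 ± 0.00866 FPKM in group A and at most 0.0404 FPKM in the mean of any group, and Ppargc1a, its coactivator, had group means of at most 0.0238 FPKM. Of 7 tested PPAR target genes outside the 37, 3 were lower and 3 were higher in group B vs. A, or 1 and 5 under median-ratio scaling. Of all genes tested, 72.0% were lower and 20.1% higher, or 45.0% and 42.8% under that scaling. Pdk4, the kinase that shuts off pyruvate dehydrogenase, was listed at 0 in groups A and D and at 2.58 ± 1.35 FPKM in group B. Angptl4 fell from 14.6 ± 2.35 to 4.27 ± 0.154 FPKM in group B vs. A (-1.55) and rose to 59.3 ± 4.64 FPKM in group D (1.96 ± 0.11, adjusted p = 9.26e-07), the largest rise of that list in group D vs. A.

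With TCA on top of Cu/ES (C vs. B), 1 of the 31 genes of fatty acid oxidation was higher and 9 were lower, as were 1 and 2 of the 5 ketone body genes, 5 and 5 of the 20 biogenesis genes, 5 and 1 of the 17 regulators and 3 and 2 of the 7 PPAR targets, where 20.4% of all genes were higher and 23.6% lower. With TCA alone (D vs. A), 2 of the 31 were higher and 6 lower, 1 and 3 of the biogenesis genes moved these ways, 3 ketone body genes and 4 regulators were lower, and 2 PPAR targets were higher, where 10.5% of all genes were higher and 11.5% lower. The largest fall of the first list in group C vs. B was that of Pecr, a peroxisomal enoyl-CoA reductase, from 2.92 ± 1.24 to 0.924 ± 0.485 FPKM (-1.01 ± 0.22, adjusted p = 0.00189). Of the ketone body genes it was that of Oxct1, which lets cells use ketone bodies, from 20.1 ± 0.358 to 9.13 ± 0.102 FPKM (-1.06 ± 0.06, adjusted p = 1.42e-07). The interaction was higher with Cu/ES for 9 of the 17 regulators, where 17.7% of all genes were called in that direction. Under median-ratio scaling it was higher for 5 of them, where 16.7% of all genes were.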

How the data were processed

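Libraries of polyadenylated RNA (VAHTS Universal V6 kit, Illumina NovaSeq) from 3 replicates in each of 4 groups were used. The submitters' processing notes name fastp, HISAT2, HTSeq and GRCm39, and their versions are not given in the sources used here. The authors deposited FPKM, that is, counts scaled by gene length and library total, as 1 table with the replicates kept apart. Because FPKM is not a count, the main fit used limma 3.58.1 (R 4.3.3) on log2(FPKM + 1), with a term for each of the 4 groups, a trend of variance on level, moderated variances and 8 residual degrees of freedom. It held the 10615 genes whose mean FPKM reached 1. Tests were two-sided, and the Benjamini-Hochberg adjustment ran over all genes in the fit. Changes on this scale understate those of genes of low level. Exact permutation tests of 3 libraries against 3 cannot go below p = 0.1 and decided no call. Reads were recovered from the spacing of FPKM values; with a tolerance of 0.001 reads, 100% of 22212 genes that were above 0 in 2 or more libraries came out whole. Intervals and limits from them cover counting error at most, and the limit for Acox2 covers that of group D alone.

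The genes and lists were chosen with earlier results of these data known. Full statistics were given for up to 4 rises and 4 falls per comparison among the 37 genes with an adjusted p under 0.05 and no overlap. The statistics of Crat, Acsl3, Acadvl and Acot2 in group B vs. A and the gene pairs were added after their values were seen. From each other list, the largest rise and fall and genes at 0 could be named, and some of these are not reported here.

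The deviations of libraries of the same number from their group means were correlated across genes. In groups A and B the correlations were 0.173, 0.174 and 0.142. In groups A and D they were 0.0872, 0.579 and 0.302, in B and C 0.277, 0.243 and 0.00502, and in C and D -0.171, -0.0671 and 0.110. Over all pairs of groups, libraries of unlike number had correlations from -0.51 to 0.367. No label says that the numbers pair the samples, and the main fit held no term for them.

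The alternatives were a pseudocount of 0.1, a mean FPKM of 5 or no filter, scaling to TPM, by median ratios or by quantiles, a replicate block, no trend, only the groups compared, limma-voom on recovered reads and each library left out. The fit was also run on simulated libraries at the levels of group A, in which few genes changed, equally up and down. Most genes were lower in groups B and C, so that run does not bear on the scaling. Promoters came from RefSeq on GRCm38.p6, which is not the build of the counts. Crat, Decr1, Hsd17b4 and Acaa2 had no sequence used here. Tables and plots were made with pandas 2.3.3 and matplotlib 3.10.9 (Python 3.11.15).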

Additional observations from a re-analysis of the deposited data

Results flagged for a closer look

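For 9 of the 37 genes, the limma interaction term found unequal TCA effects in the presence and absence of Cu/ES. The values are the change in group C vs. B minus the change in group D vs. A on the log2(FPKM + 1) scale. The difference was -1.25 for Etfb, where TCA changed the level by -1.26 with Cu/ES and by -0.01 without. It was -0.91 for Acsl5, with changes of -0.52 and 0.39. For Acadvl it was -0.63, with -0.89 and -0.26, and for Acadl -0.55, with -0.75 and -0.21. For Eci1 it was -0.58, a call lost under 15 of 21 alternatives, for Echs1 -0.44, lost under TPM and quantile scaling, and for Hadha -0.43, lost under quantile scaling. In the other direction, it was 0.56 for Hadh, with changes of -0.02 and -0.57, and 0.43 for Acox3, with 0.24 and -0.20. Interaction calls were received by 17.7% of all genes tested in the higher and 19.8% in the lower direction.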

How the results depend on the processing

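The counts of genes past the thresholds kept within 1.5 times of their value except as follows. In group B vs. A, 29 genes passed both thresholds, and 17 did so under median-ratio scaling and 19 under quantile scaling. In group C vs. D the counts were 29, 19 and 18. In group D vs. A, 9 genes passed the adjusted p, and 4 did so with a pseudocount of 0.1, 3 with median-ratio scaling, 14 with limma-voom on recovered reads, and 4 to 7 when 1 library was left out, with 5 without A replicate 1, 5 without D replicate 1 and 4 without D replicate 3. With the replicate block, the counts were 29, 17, 9, 29 and 10 in groups B vs. A, C vs. B, D vs. A, C vs. D and the interaction, against 29, 16, 9, 29 and 9. Of 28 single results, the largest rises and falls of each comparison, 22 kept their call under all alternatives. The calls of Acox3 in C vs. B, of Acsl3, Scp2, Decr2 and Acsl1 in D vs. A and of Eci1 in the interaction were lost. These losses made up 46 of 473 refits over all 28, with no change of direction. The replicate block changed none of these calls. Crat, Acsl3, Acadvl and Acot2 in group B vs. A were not among the 28. Each of them lost its direction under at least 1 scaling. The cause of these dependences was not tested. Genes with few reads in groups B and C, such as Decr2 and Cpt2, limit what can be said of TCA on top of Cu/ES.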
